A study of Mus musculus with 6 samples.

Results

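Tetraspanins were examined in splenic B cells that lack CD37 and in their WT counterparts. The 10 genes were chosen by name as tetraspanins to set beside CD37 in B cells: Cd37, Cd53, Cd81, Cd82, Cd9, Cd63, Cd151, Tspan32, Tspan33 and Tspan31. Earlier results of these data were known when they were chosen. They are 10 of the 19935 genes measured and 10 of the 30 genes of the tetraspanin family that were measured. Each had 1 probe set of its own on the array, and none of these probe sets was shared with another gene.

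RNA came from 3 CD37KO mice (Cd37 -/-) and 3 WT mice, described as littermates on a C57BL/6J background, with 1 Affymetrix mouse gene array per mouse. The labels give an age of 3 months for all 6 mice, while the methods give a later age for the isolation of spleens. B cells were enriched from the spleen by removing cells that carry CD43, and B220 staining served to assess purity. Only isolates of high purity were kept per the methods, although some other cells could remain. The mice are described as Cd37-deficient without a restriction to B cells, so that other cells in an isolate would also lack CD37. Values are log2 hybridization signals after RMA, the array method that corrects background, normalizes between arrays and summarises each probe set.

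Tetraspanins are small membrane proteins that cross the membrane repeatedly and bind one another and a set of partner proteins, which gathers receptors, integrins and proteases into clusters. In B cells, CD81 takes part in signalling at the cell surface, CD37 takes part in antibody responses and in survival signalling, and CD53 is found on most leukocytes. Related family members often share partners. The RNA of each tetraspanin was compared between B cells without and with CD37.

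Cd37 was lower in CD37KO B cells, and the other 9 tetraspanins did not pass the limma test (adjusted p under 0.05). Thus 0 of the 10 genes were called higher and 1 lower, while of all genes 0.0251% were called higher and 0.0301% lower, 0.0552% in all. At an unadjusted p under 0.05 from limma the count was again 0 higher and 1 lower, Cd37 itself, against 2.96% of all genes higher and 2.99% lower, 5.95% in all, and ordinary least squares gave the same single gene with and without adjustment. The 7 other genes that were above background in every array had log2 differences between -0.072 for Cd151 and 0.15 for Tspan31, with a median of -0.012, beside a median of 0.017 over all 9874 genes above background. Of these 7 differences, 3 were positive and 4 negative.

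**Figure D1:**
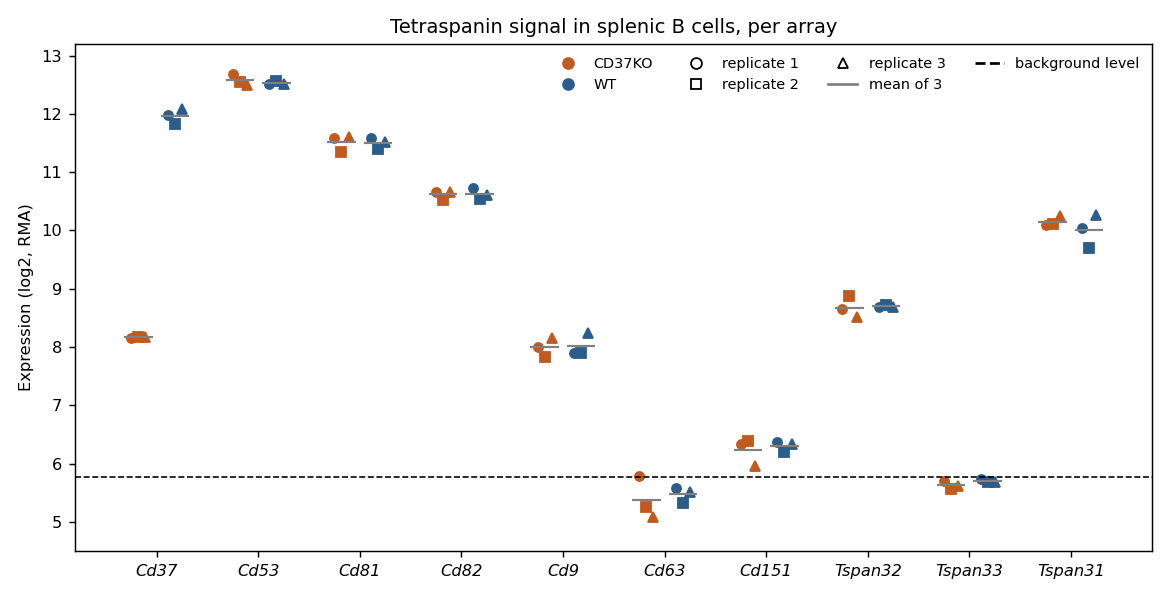
Log2 expression (RMA) of the 10 tetraspanins in 3 CD37KO and 3 WT arrays, where circles mark replicate 1, squares replicate 2 and triangles replicate 3, with the mean of 3 as a grey bar and the background level of 5.77 as a dashed line. Cd37 alone separates the genotypes, Cd63 exceeds the dashed line in 1 array and Tspan33 in 0, and the other genes lie above it in all 6 arrays.

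Cd37, the deleted gene (Entrez Gene 12493), checked the labels. Its log2 level was 8.15, 8.17 and 8.17 in the CD37KO arrays and 11.99, 11.82 and 12.08 in the WT arrays. All 3 CD37KO arrays lay below all 3 WT arrays, with hardly any spread among them. The mean was 8.16 ± 0.011 in CD37KO cells and 11.97 ± 0.13 in WT cells (SD, n = 3 each). This made the CD37KO signal 13.9-fold lower, a log2 difference of -3.80 (95% interval -3.98 to -3.63, limma adjusted p = 1.37e-07). The remaining signal was 2.40 above the background level of 5.77, taken from 1015 olfactory receptor genes as the 95th percentile of their mean levels. For the exons that the probes cover, the sources used here give nothing.

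Levels were read only against this background, since probe sets differ in sequence and their signals cannot be ranked against each other. Of the 10 tetraspanins, 8 were above background in all 6 arrays, as were 49.5% of all genes. The 2 exceptions were Cd63 and Tspan33, so the data do not show these 2 as expressed with Cd37 in the isolated cells. With the 90th percentile of those genes as background, a log2 level of 5.47, Tspan33 also counted as above it and the number was 9. With the 99th percentile, a level of 6.40, Cd151 no longer did and the number was 7.

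Cd53, the pan-leukocyte tetraspanin, had log2 levels of 12.68, 12.55 and 12.50 in CD37KO B cells and of 12.51, 12.56 and 12.51 in WT B cells. CD37KO replicate 1 was the highest of the 6 arrays, and the remaining 2 CD37KO arrays lay within or just below the WT values. The log2 difference was 0.045 (standard error, SE, 0.068, 95% interval -0.11 to 0.20, limma adjusted p = 0.899). The upper bound of this interval is a fold of 1.15. Without CD37KO replicate 1 the difference was -0.0062.

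Cd81, a broadly expressed tetraspanin, was at 11.59, 11.35 and 11.60 in CD37KO cells and at 11.59, 11.40 and 11.52 in WT cells. The groups overlapped almost entirely, and the lowest array of each genotype was replicate 2. The log2 difference was 0.0098 (SE 0.089, 95% interval -0.19 to 0.21, limma adjusted p = 0.985), which allows a fold of 0.875 to 1.16. Its sign turned under 6 of 14 alternative analyses, so it is given no direction. Among these were the 3 that left out CD37KO replicate 1 (-0.029), CD37KO replicate 3 (-0.032) or WT replicate 2 (-0.044).

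Cd82, known in human cancers as a suppressor of metastasis, was at 10.66, 10.53 and 10.66 in CD37KO cells and at 10.74, 10.54 and 10.62 in WT cells. The genotypes overlapped, and WT replicate 1 was highest. CD37KO minus WT gave a log2 difference of -0.012 (SE 0.075, 95% interval -0.18 to 0.16, limma adjusted p = 0.979). It was 0.032 without CD37KO replicate 2 and 0.041 without WT replicate 1.

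Cd9 marks marginal zone B cells and plasma cells and is also found on platelets. Its log2 level was 7.99, 7.82 and 8.16 in CD37KO B cells and 7.89, 7.90 and 8.24 in WT B cells. In each genotype replicate 3 was the highest array. The log2 difference was -0.019 (SE 0.12, 95% interval -0.29 to 0.25, limma adjusted p = 0.980), and it was 0.065 without CD37KO replicate 2 and 0.097 without WT replicate 3. Of the 7 marginal zone B cell genes, all were above background in every array, and their mean log2 level ranged from 9.24 to 9.40 in CD37KO arrays and from 9.32 to 9.53 in WT arrays. This list was highest in replicate 3 among the WT arrays, as Cd9 was, but in replicate 2 among the CD37KO arrays, where Cd9 was lowest. The 6 plasma cell genes, 5 of them above background throughout, averaged 8.10 to 8.25 in CD37KO arrays and 8.04 to 8.14 in WT arrays, and the 6 measured platelet and megakaryocyte genes, 4 of them above background throughout, 6.31 to 6.59 in CD37KO arrays and 6.48 to 6.55 in WT arrays, with Pf4 and Itga2b below background throughout. Of the marginal zone genes 2, Dtx1 and Plxnd1, were lower in CD37KO without overlap (7.57% of all genes). Of the platelet and megakaryocyte genes 2, Pf4 and Itga2b, were so too, and of the plasma cell genes 0. At an unadjusted p under 0.05 from limma, Plxnd1, Gp9 and Itga2b were lower (2.99% of all genes) and Itgb3 was higher (2.96%). By limma 0 genes of these lists passed the adjusted test. The part of these cells in the Cd9 signal was not tested.

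Tspan32, a tetraspanin of blood cells also known as TSSC6, was at 8.65, 8.87 and 8.51 in CD37KO cells and at 8.69, 8.71 and 8.69 in WT cells. The 3 WT arrays were nearly equal and sat inside the wider range of the CD37KO arrays. The SD was 0.18 in CD37KO cells and 0.014 in WT cells (n = 3 each), a contrast of spreads that was not tested. The log2 difference was -0.022 (SE 0.091, 95% interval -0.23 to 0.19, limma adjusted p = 0.965), and it was 0.059 without CD37KO replicate 3.

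Tspan31, which is amplified in some human sarcomas, was at 10.10, 10.11 and 10.25 in CD37KO cells and at 10.03, 9.70 and 10.26 in WT cells. WT replicate 2 was lowest by a clear margin, and WT replicate 3 was the highest of the 6 arrays. The log2 difference of 0.15 was the largest positive one among the 9 genes (SE 0.13, 95% interval -0.14 to 0.45, limma adjusted p = 0.833). It depended on single WT arrays. It was 0.29 without WT replicate 3 (unadjusted p = 0.0345, limma adjusted p = 0.964) and 0.0046 without WT replicate 2.

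Cd151, the tetraspanin that binds laminin-binding integrins, lay only 0.50 above background on average. Its log2 level was 6.34, 6.38 and 5.97 in CD37KO cells and 6.36, 6.20 and 6.33 in WT cells. CD37KO replicate 3 was lowest, and the remaining 5 arrays lay close together. CD37KO cells had a log2 difference of -0.072 (SE 0.11, 95% interval -0.33 to 0.19, limma adjusted p = 0.903), but 0.060 without CD37KO replicate 3.

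Cd63 belongs to late endosomes, granules and secreted vesicles. It was at 5.79, 5.26 and 5.08 in CD37KO cells and at 5.59, 5.32 and 5.51 in WT cells, so that only CD37KO replicate 1 exceeded background. Tspan33, a partner of the protease ADAM10 that is known from red cell precursors and activated B cells, was at 5.70, 5.57 and 5.61 in CD37KO cells and at 5.73, 5.69 and 5.69 in WT cells. It was just under background in every array. The adjusted p from limma was 0.910 for Cd63 and 0.829 for Tspan33. With both groups at or near background, the differences of these genes are not read as folds. Without CD37KO replicate 1, the only array above background, Cd63 passed an unadjusted p under 0.05 from limma (limma unadjusted p = 0.0217, limma adjusted p = 0.999) on signals that were then all below background.

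The 7 tetraspanins other than Cd37 that were above background throughout had 95% intervals between -0.33 (Cd151) and 0.45 (Tspan31) on the log2 scale, which are folds of 0.796 and 1.37. Each gene's own interval bounds its difference, and a p over the threshold does not show equal levels. The series text sets each WT array against each CD37KO array, which gives 9 pairs. Cd37 was higher in CD37KO in 0 of the 9 pairs. For the other 9 genes, CD37KO was the higher in 2 to 6 of the 9 pairs, with 2 for Tspan33 and 6 for Tspan31. The pairs reuse the same 6 arrays for every gene, so they are a description and not independent comparisons.

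**Figure D2:**
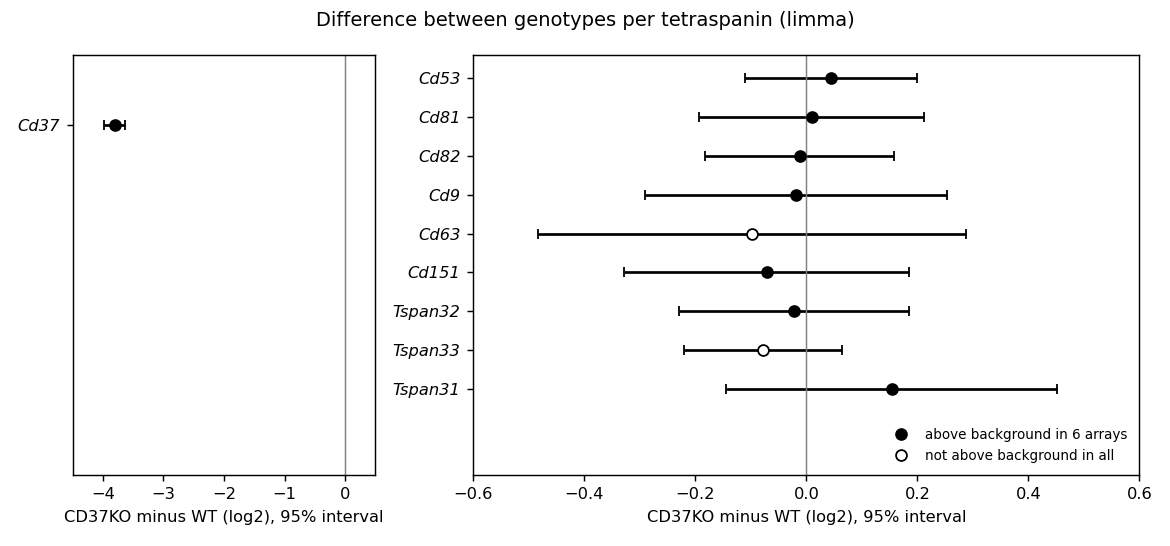
Log2 difference, CD37KO minus WT, of each tetraspanin with its 95% interval from limma (3 arrays per genotype), with Cd37 on a wider scale at the left and the other 9 genes at the right. Filled points were above background in all 6 arrays; the interval of every gene at the right includes 0, and that of Cd37 runs from -3.98 to -3.63.

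Cd151, Tspan32 and Cd81 lie on chromosome 7, as Cd37 does. By their order in the GRCm38.p6 assembly they are 1014, 1048 and 1050 measured genes away from Cd37, among 1738 measured genes on that chromosome. Tspan32 and Cd81 are near neighbours there, and neither passed the test above. The remaining 6 tetraspanins lie on chromosomes 2, 3, 6 and 10.

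Across the wider family, 30 of 31 listed genes were measured and 15 were above background in all 6 arrays. In this list Cd37 was again the only gene called, by limma and by ordinary least squares. At an unadjusted p under 0.05 from limma, 0 genes were higher and 3 lower, namely Cd37, Tspan18 and Rom1, a photoreceptor tetraspanin. Leaving Cd37 aside, this is 6.90% of 29 genes, against 5.95% of all genes. Tspan18 had a log2 difference of -0.17 and Rom1 one of -0.16 (limma adjusted p = 0.801 for both), and both were below background in all 6 arrays. The 3 CD37KO arrays lay below the 3 WT arrays for 4 of the 30 genes, Cd37, Tspan8, Tspan18 and Rom1, and above them for 0. Leaving Cd37 aside, 3 of 29 genes were lower without overlap, 10.3%, against 7.57% of all genes. Higher without overlap were 0, against 4.33% of all genes. Tspan8 had a log2 difference of -0.047 and, like Tspan18 and Rom1, was below background in all 6 arrays. With 3 arrays per genotype, the smallest p of an exact permutation test is 0.10.

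Of the 20 family members beyond the 10, 7 were above background in every array. Tspan13 was at 11.50, 11.32 and 11.55 in CD37KO B cells and at 11.44, 11.35 and 11.39 in WT B cells, a log2 difference of 0.067 (SE 0.077, limma adjusted p = 0.867). Its groups overlapped, although 2 CD37KO arrays were the highest of the 6. Tspan14, one of the tetraspanins that bind ADAM10, averaged 10.25 ± 0.041 in CD37KO cells and 10.30 ± 0.041 in WT cells (SD, n = 3 each). Tspan5, which binds ADAM10 as well, averaged 8.02 ± 0.074 in CD37KO cells and 8.09 ± 0.11 in WT cells (SD, n = 3 each). The 2 means differed by less than the SD among WT arrays for Tspan5 and by slightly more than it for Tspan14, and the groups overlapped for both. Tspan3, Tspan2 and Tspan17 had log2 differences of 0.0097, -0.090 and -0.031, and none of the 3 passed an unadjusted p under 0.05 from limma. Over the 6 measured ADAM10-binding tetraspanins (Tspan5, Tspan10, Tspan14, Tspan15, Tspan17 and Tspan33) all 6 log2 differences were negative, with a median of -0.061, and 0 passed an unadjusted p under 0.05 from limma or ordinary least squares. Of these 6 genes, Tspan10 and Tspan33 were below background in all arrays and Tspan15 was above it in 2. Over all genes 11598 of 19935 differences were negative, but 4249 of 9874 among genes above background.

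**Figure D3:**
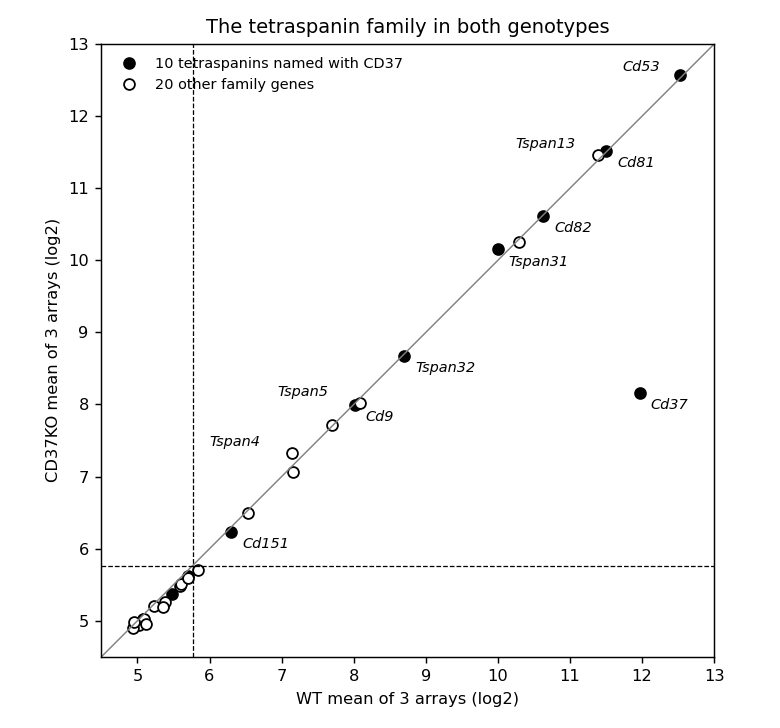
Mean log2 expression of the 30 measured tetraspanin family genes in CD37KO cells (vertical axis) and WT cells (horizontal axis), 3 arrays each, with the background level of 5.77 dashed and the line of equality in grey. Filled points are the 10 tetraspanins named with CD37; Cd37 stands far below the grey line and the other genes lie on or close to it.

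Tspan4, known from migrating cells, had the greatest SD over the arrays in the family after Cd37 (0.56). It was at 7.74, 6.40 and 7.85 in CD37KO cells and at 7.51, 6.90 and 7.02 in WT cells. CD37KO replicates 1 and 3 and WT replicate 1 were the 3 highest arrays, and CD37KO replicate 2 was the lowest. Its log2 difference was 0.18 with an SE of 0.35 (limma adjusted p = 0.922). Tspan4 passed an unadjusted p under 0.05 from limma only without CD37KO replicate 2, its lowest array. It did so neither in the main analysis nor in any other alternative, and it passed the adjusted test in none. The same 3 arrays were also the 3 highest for Cd81, Cd82, Tspan3 and Tspan13, over a range of 0.25 for Cd81, 0.21 for Cd82, 0.45 for Tspan3 and 0.24 for Tspan13. They were the 3 highest for the macrophage and monocyte genes too, whose mean over 14 measured genes was 9.53, 8.33 and 9.55 in CD37KO arrays and 9.45, 8.64 and 8.72 in WT arrays, with 12 of the 14 above background throughout. The 5 measured erythroid genes had the same 3 highest arrays, with means of 6.18, 5.78 and 6.17 in CD37KO arrays and of 6.05, 5.79 and 5.86 in WT arrays. Cd53, Cd9, Cd63, Cd151, Tspan31, Tspan32 and Tspan33 did not have these as their 3 highest arrays. For Tspan3 the match was narrow, with CD37KO replicate 3 at 7.775 and WT replicate 3 at 7.772. The share of all genes with these 3 arrays highest was not counted. In such isolates, fewer cells of a type and less RNA per cell cannot be told apart. The part of macrophages, monocytes and erythroid cells in these tetraspanin signals was not tested.

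**Figure D4:**
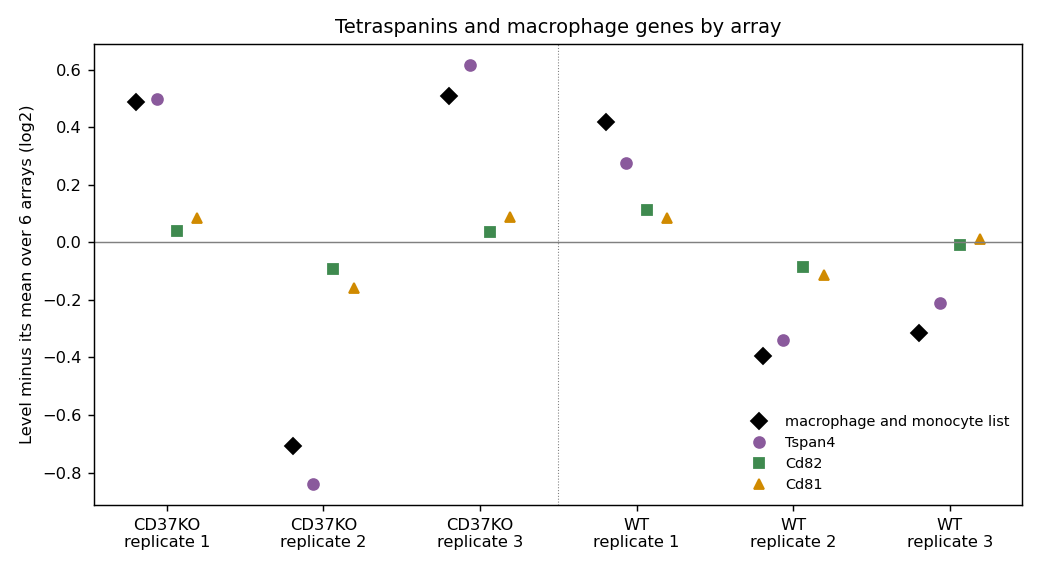
Log2 level minus its mean over 6 arrays for the mean of 14 macrophage and monocyte genes (diamonds), Tspan4 (circles), Cd82 (squares) and Cd81 (triangles), in CD37KO arrays at the left and WT arrays at the right. All 4 are above 0 in CD37KO replicates 1 and 3 and WT replicate 1 and below 0 in CD37KO replicate 2 and WT replicate 2. The tetraspanins shown are among those that share their 3 highest arrays with this list, and other tetraspanins did not.

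Signals of marker genes of other cell types were compared between the arrays as well. The 12 neutrophil genes had a mean log2 level of 7.98, 6.62 and 7.30 in CD37KO arrays and of 6.24, 6.04 and 6.29 in WT arrays, and CD37KO replicate 1 was highest for them as it was for Cd53 and Cd63. Of these genes 5 were above background throughout and 8 did not overlap between the genotypes, all 8 higher in CD37KO (4.33% of all genes). By limma 0 of the 12 passed the adjusted test, while 11 were higher at an unadjusted p under 0.05 (2.96% of all genes). The 10 measured B cell genes were above background in every array, with means of 11.61 to 11.65 in CD37KO and of 11.60 to 11.66 in WT arrays. Of the T cell genes 2 of 7 measured were above background throughout, of the erythroid genes 2 of 5, of the dendritic cell genes 4 of 6 and of the stromal and endothelial genes 3 of 7. The stromal and endothelial means were 6.37 to 6.46 in CD37KO arrays and 6.57 to 6.69 in WT arrays and did not overlap. Of these 7 genes, 3 were lower in CD37KO without overlap (7.57% of all genes), namely Igfbp7, Cdh5 and Kdr. Cdh5 and Kdr were below background in all 6 arrays. At an unadjusted p under 0.05 from limma 2 were lower (2.99% of all genes), Kdr and Igfbp7. The log2 difference was -0.71 for Igfbp7 (limma adjusted p = 0.801) and -0.018 for Pecam1, the brightest gene of this list. The array means of the T cell, erythroid and dendritic cell lists overlapped between the genotypes. Even so, 2 of 7 T cell genes, Cd3e and Cd3g, were lower in CD37KO without overlap (7.57% of all genes). So was 1 of 6 dendritic cell genes, Siglech, while 1 of 5 erythroid genes, Ermap, was higher without overlap (4.33% of all genes). Cd3g was below background in all 6 arrays. At an unadjusted p under 0.05 from limma, Cd8b1 and Siglech were lower (2.99% of all genes). By limma 0 genes of these lists passed the adjusted test. The part of these cells in the tetraspanin signals was not tested.

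Genes whose products bind tetraspanins or take part in CD37 signalling formed a further list, of which 33 of 35 were measured and 29 were above background in all 6 arrays. By limma 0 of them had an adjusted p under 0.05, and by ordinary least squares 0 did. At an unadjusted p under 0.05 from limma, 2 were higher and 1 was lower, 9.09% of the list against 5.95% of all genes. The list's median log2 difference was 0.013, against -0.019 over all genes. The genotypes did not overlap for 4 of the 33 genes, 12.1%, against 11.9% of all genes.

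Il6st encodes gp130, the signalling subunit shared by receptors of the interleukin-6 family. It was at 10.29, 10.28 and 10.21 in CD37KO cells and at 10.13, 10.12 and 10.08 in WT cells. All 3 CD37KO arrays were above all 3 WT arrays, by a log2 difference of 0.15 (SE 0.059, limma adjusted p = 0.801). Pi4k2a, a lipid kinase that binds several tetraspanins, was at 8.66, 8.58 and 8.60 in CD37KO cells and at 8.51, 8.43 and 8.49 in WT cells, a log2 difference of 0.14 (SE 0.060, limma adjusted p = 0.801). The groups did not overlap for it either. Adam10, the protease that several tetraspanins carry to the cell surface, was at 9.99, 10.02 and 9.95 in CD37KO cells and at 10.06, 10.11 and 10.11 in WT cells. Every CD37KO array was below every WT array, by a log2 difference of -0.11 (SE 0.059, limma adjusted p = 0.801). Cd36, a fatty acid receptor that binds CD9 in other cells, was the fourth gene without overlap, with a log2 difference of -0.16 (limma adjusted p = 0.801). Slc27a1 encodes FATP1, the fatty acid transporter that the authors report to interact with CD37. It was above background in all 6 arrays, the genotypes overlapped, and the log2 difference was -0.010 (SE 0.067, limma adjusted p = 0.981).

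Ifitm3 and Ifitm2 encode small interferon-induced membrane proteins, a family of which a member joins CD81 on human B cells. Their spreads were wider. Ifitm3 was at 9.85, 8.87 and 9.78 in CD37KO cells and at 9.77, 8.19 and 8.83 in WT cells, a log2 difference of 0.57 (SE 0.39, limma adjusted p = 0.810). CD37KO replicates 1 and 3 and WT replicate 1 were again the 3 highest arrays. Ifitm2 had a log2 difference of 0.35 (SE 0.28, limma adjusted p = 0.829). Both passed an unadjusted p under 0.05 from limma with the replicate block and without CD37KO replicate 2, and Ifitm3 also without WT replicate 1. Of the 10 partners above background with the smallest unadjusted p, the others were Itga6, Stat3, Cd74 and Itga4, with log2 differences of -0.14, 0.091, 0.087 and -0.086. Cr2, which encodes a complement receptor of B cells that associates with CD81, had a log2 difference of -0.018 (SE 0.074, limma adjusted p = 0.965).

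Over the 6 arrays, the genes most like Cd37 were Siglecg (an inhibitory lectin of B cells), Spty2d1, Pold1 (a DNA polymerase subunit), 2410002F23Rik and Rell1, with Pearson's r between 0.976 and 0.987 among 489 genes that varied. The 6 points share 1 contrast, since Cd37 is near 8.16 in every CD37KO array, so these values describe mainly the genotypes. All 5 genes were themselves called lower in CD37KO, with log2 differences from -0.76 to -0.55 (limma adjusted p from 0.0238 to 0.0412). With Cd37 they are the 6 genes called lower among all genes. Where these 5 genes lie relative to Cd37 on the chromosomes was not examined here. After Cd37, Cd63 had the greatest SD over the arrays of the 10 tetraspanins (0.26). The 5 genes most like it were Cxcl2, Clec4d, Ifitm1, Cbr2 and Havcr2, with r between 0.822 and 0.880 among 490 genes. The points of each correlation share arrays and genotypes. These correlations are given as descriptions without a test.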

How the data were processed

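The values that the authors deposited are RMA signals on a log2 scale, 1 per probe set and array, and the labels name mm8 as the build. For the RMA program the sources used here give no name or version, and raw scans were not used. RMA pulls low signals together, which shrinks differences near background. Of 35361 probe sets, 21780 named 1 gene. Symbols were updated through Entrez Gene IDs with the GRCm38.p6 gene table, used only for names and gene order, and the brightest probe set per gene gave 19935 genes.

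Differences (CD37KO minus WT) were tested in limma 3.58.1 (lmFit, then eBayes) under R 4.3.3. Its two-sided p-values were adjusted after Benjamini-Hochberg across the 19935 genes, with 0.05 as threshold, and the code was tested on simulated data. The number of arrays limits the precision. Alternatives were a further normalization, other centring, probe set, background and variance choices, a replicate block and leaving out each array. Tspan7 and Ggt1 were not analysed here. The members and lists were chosen with earlier results of these data known. Genes named besides the 10 included other family members above background, the 10 partners with the smallest unadjusted p and the 5 genes most like Cd37 and Cd63. Genes of 5 or fewer in a count and list markers were named too. Tspan15, Tspan10, Slc27a1 and Cr2 were named for their roles.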

Additional observations from a re-analysis of the deposited data

How the results depend on the processing

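Cd37 was the only tetraspanin, and the only family member, called under all 14 alternatives, and 0 partners were called under any of them, at an adjusted p under 0.05. Its log2 difference ran from -3.87 to -3.74. The count of changed genes, 11 in the main analysis, was 3 by ordinary least squares, 19 with array weights, 4 with the replicate block and 4 to 14 when 1 array was left out (4 without CD37KO replicate 1, CD37KO replicate 3 or WT replicate 1, 14 without CD37KO replicate 2). Same-numbered arrays had correlations of deviations from the group means of 0.24, 0.0068 and -0.14, so the numbers were not taken as pairs. The replicate block changed no call on a tetraspanin. The median log2 difference of the 9 other tetraspanins ran from -0.061 to 0.052. Signs turned for Cd81 with a further quantile normalization (-0.0072), median centring (-0.0044) and array weights (-0.018), for Cd82 with quantile normalization (0.0089) and for Cd9 with array weights (0.090). When 1 array was left out, the difference ran from -0.0062 to 0.084 for Cd53, from -0.044 to 0.091 for Cd81, from -0.058 to 0.041 for Cd82, from -0.10 to 0.097 for Cd9, from -0.30 to 0.052 for Cd63 (on signals mostly below background), from -0.15 to 0.060 for Cd151 and from -0.12 to 0.059 for Tspan32. The cause was not tested. At an unadjusted p under 0.05 the family count, 3 in the main analysis, ran from 1 to 7 and the partner count, also 3, from 0 to 6. With only genes above background tested, Cd63 and Tspan33 gave no value. Their signals at background limit what can be said of them.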
